A study of Homo sapiens with 4 samples.

Results

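The cytosolic ribosomal proteins were examined in SW1353 cells on 4 whole-genome expression arrays. The members are the probes whose platform gene symbol is RPL or RPS followed by a number, with or without a letter, or is RPSA, RPLP0, RPLP1 or RPLP2; the RPS6K kinases and pseudogenes were left out. The rule used gene names only, and no measured value. It found 125 probes for 77 genes, out of 27565 probes that carry 1 gene name and 18661 named genes. Of these, 115 probes for 73 genes were detected on at least 1 array and 113 probes on all 4. SW1353 is an established human chondrosarcoma line, kept here as a stand-in for chondrocytes. Cells that had been without serum overnight received vehicle, DMSO, either alone (Con) or with IL-1α for 6 h (IL1). The others received trichostatin A (TSA) at 250 ng/ml, either for 1 h before the same IL-1α stimulation (IL1_TSA) or with no cytokine (Con_TSA). IL-1α is an inflammatory cytokine and TSA blocks histone deacetylases that need zinc. The labels give 6 h of IL-1α, while a legend of the study names a longer time for this experiment. Each condition was 1 array, so no difference between conditions has a replicate check and no p-value is given.

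The cytosolic ribosome joins a small subunit, which reads the mRNA, to a large subunit, which forms the peptide bond, and nearly every ribosomal protein is needed in 1 copy per ribosome. Their mRNAs are among the most abundant in growing cells. Most begin with a 5′ terminal oligopyrimidine (TOP) tract, a C followed by a run of C and T at the transcription start, through which the growth kinase mTOR and the RNA-binding protein LARP1 control their translation. An array of total RNA does not measure translation. Some members also act away from the ribosome: RPL5 and RPL11 bind and inhibit MDM2, the ligase that degrades p53, and RPL13A takes part in silencing inflammatory mRNAs in human myeloid cells. In these bulk samples, fewer cells of a kind and less RNA per cell cannot be told apart.

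Starts of the genes are shown first because the TOP tract is the feature that most members share and that the symbol rule did not use. Each sequence runs 15 bases before and 15 bases after the start that RefSeq annotates on GRCh38.p14, read 5′ to 3′ on the strand of the gene, with a run of at least 6 C or T that reaches within 5 bases of the start in capitals. Such a run need not be a TOP tract. The search did not ask for a C at its first base, and a run could begin before the annotated start, as in RPL7A. RPL7A had the widest range over the arrays and RPL10A and RPS23 were lowest in IL1; RPS6 and RPS25 stand for the small subunit, and EEF1A1, a translation elongation factor, for TOP genes outside the ribosome.
RPL7A, chr9:133348203-133348232, plus strand: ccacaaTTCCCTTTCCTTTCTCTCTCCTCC
RPL10A, chr6:35468386-35468415, plus strand: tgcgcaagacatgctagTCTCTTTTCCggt
RPS23, chr5:82278340-82278369, minus strand: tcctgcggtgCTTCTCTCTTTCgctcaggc
RPS6, chr9:19380222-19380251, minus strand: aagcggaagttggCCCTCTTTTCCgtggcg
RPS25, chr11:119018329-119018358, minus strand: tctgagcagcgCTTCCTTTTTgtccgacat
EEF1A1, chr6:73521018-73521047, minus strand: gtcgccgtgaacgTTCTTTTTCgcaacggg
The run was 25 bases long in RPL7A, where it goes on past the bases shown, 11 in RPS6, 10 in RPL10A and RPS25, 12 in RPS23 and 9 in EEF1A1.

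Paralogues are extra copies of a ribosomal protein gene, and 3 of them are set beside their partners; RPL10L is shown alone, since its partner RPL10 was not detected.
RPS27, chr1:153990747-153990776, plus strand: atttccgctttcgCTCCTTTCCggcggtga
RPS27L, chr15:63157463-63157492, minus strand: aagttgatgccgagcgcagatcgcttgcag
RPL26, chr17:8383179-8383208, minus strand: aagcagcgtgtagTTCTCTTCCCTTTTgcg
RPL26L1, chr5:172958865-172958894, plus strand: ggcggggcggcggccacaaacccgcaggca
RPL36A, chrX:101390996-101391025, plus strand: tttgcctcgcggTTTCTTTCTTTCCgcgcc
RPL36AL, chr14:49620612-49620641, minus strand: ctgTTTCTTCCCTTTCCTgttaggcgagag
RPL10L, chr14:46651767-46651796, minus strand: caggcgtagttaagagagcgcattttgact
A run was present in RPS27, RPL26 and RPL36A and, among the paralogues shown, in RPL36AL, where most of it lies before the annotated start. RPS27L, RPL26L1 and RPL10L had none in this window. RPL10L is an intronless copy of RPL10 that is known from testis, and RPS27L is a paralogue of RPS27 that p53 induces.

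Of 72 members looked up in RefSeq, 62 had a start sequence. A run of at least 6 C or T was found in 52 of them (83.9%), against 27.2% of 27305 genes read in the same way. It was found in 51 of 57 core members (89.5%) and in 1 of 5 paralogues, RPL36AL. A run of at least 6 A or G, the same search on the purines at the starts chosen for their C or T run, was found in 3.23% of the members and in 17.5% of all genes. A C or T run at the start leaves little room there for a purine run, so these shares are no separate check. In the 300 bases around the start, the letters CCGGAAG, the core of an ETS-type motif, were found on either strand in 33.9% of members and 10.6% of all genes. AAGATGGC, the core of a YY1-type motif, was found in 9.68% of members and 2.98% of all genes. These matches describe letters in a window and are not binding sites.

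The arrays responded to both agents in genes outside the ribosome. On the normalised log2 scale used throughout (a level is the mean over the detected probes of a gene), the chemokine CXCL8 was at 7.49 in Con, 15.44 in IL1, 15.30 in IL1_TSA and 6.94 in Con_TSA. DHRS2, a known HDAC inhibitor response gene, was at 10.99, 10.69, 12.18 and 12.26 in the same order. Between 26.8% and 28.8% of all probes were detected per array. IL1_TSA had the highest median raw intensity, 113, against 86.9 to 95.3 on the other 3. Of 12 chondrocyte markers only SOX9, COL11A1 and HAPLN1 were detected, and COL2A1 and ACAN were not. All 4 mesenchymal markers were detected, none of 3 epithelial markers, and 1 each of the leukocyte (CD68, of 4 listed) and endothelial (VWF, of 3) lists.

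The ribosomal protein mRNAs differed little between the 4 arrays. A gene was called when 2 arrays differed by at least 1.5-fold, the threshold of the study, and it was detected on the brighter of them. In IL1 against Con 1 of 73 members was higher and none lower, where 16.5% of 10128 genes were called (8.54% higher and 7.93% lower). In IL1_TSA against IL1 again 1 was higher and none lower, where 39.4% of genes were called (21.2% and 18.2%). In Con_TSA against Con and in IL1_TSA against Con_TSA no member was called, against 32.7% of all genes (16.3% higher and 16.4% lower) and 6.95% (4.2% and 2.75%). In IL1_TSA against Con, which combines both agents, 2 members were higher and none lower, where 36.7% of genes were called (18.2% and 18.5%).

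Bright probes vary less on arrays, so genes with a mean level of at least 12 give a closer background. There were 776 such genes, 54 of them members. None of the 54 was called in any of the 5 comparisons. Over the 776 the share called was 4.51% in IL1 against Con, 14.3% in IL1_TSA against IL1, 11.5% in Con_TSA against Con, 0.515% in IL1_TSA against Con_TSA and 12.2% in IL1_TSA against Con. Level 12 does not fully match the members, since 37 of the 101 named probes above 50% of the brightest signal were theirs. Of these 101 probes 1.98%, 1.98%, 0.99% and 0% passed 1.5-fold in the first 4 comparisons. At 25 to 50% of the brightest signal 1.88%, 4.23%, 3.76% and 1.41% of named probes passed. Little particular to the members is therefore read from the 0 of 54. In 71 of the 73 members the highest and the lowest of the 4 arrays lay less than 1.5-fold apart (97.3%), which held for 40.4% of all genes and 76.5% of the genes at level 12 or more. RPL21 and RPL18 had the narrowest ranges, 1.05-fold and 1.06-fold over the 4 arrays. RPL10L and RPL7A had the widest, 1.92-fold and 1.95-fold.

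**Figure D1:**
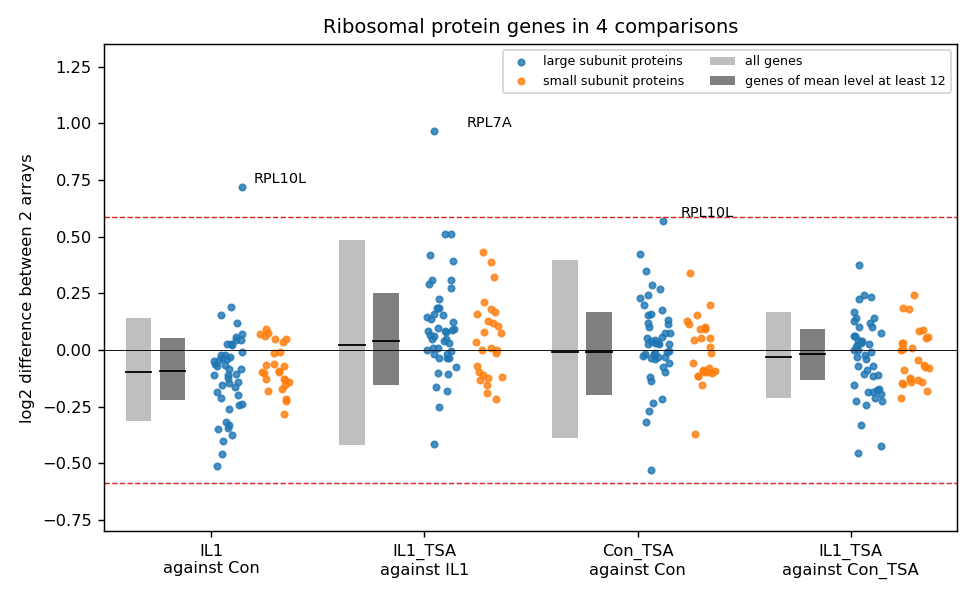
Log2 difference between 2 arrays (vertical axis) for each ribosomal protein gene, with large subunit proteins in blue and small subunit proteins in orange, in 4 comparisons. Grey bars span the middle 50% of all genes (light) and of genes with a mean level of at least 12 (dark), black lines are their medians, and red dashed lines mark 1.5-fold. Only RPL10L in IL1 against Con and RPL7A in IL1_TSA against IL1 lie past a dashed line. The Y-linked member is not drawn.

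The median member differed by -0.08 (log2) in IL1 against Con, 0.07 in IL1_TSA against IL1, 0.03 in Con_TSA against Con and -0.01 in IL1_TSA against Con_TSA. The medians over all genes were -0.10, 0.02, -0.01 and -0.03. With each array scaled to its median instead of by quantiles, the member median of IL1_TSA against IL1 turned to -0.11 and that of IL1_TSA against Con_TSA moved to -0.27, so no direction is given for the family. The SD over members was 0.18, 0.21, 0.18 and 0.17 in the same order, and that over all genes 0.71, 0.90, 0.72 and 0.45. Over the 776 genes at level 12 or more it was 0.28, 0.46, 0.42 and 0.19. Over the 54 members among those it was 0.12, 0.17, 0.14 and 0.14. A second kind of spread can be set beside the SD over all members, since 35 members had at least 2 detected probes. The SD between probes of 1 member was 0.17, 0.22, 0.17 and 0.17 in those comparisons, about as large as the SD between members. Probe spread covers measurement only and not cultures.

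RPL7A, a large subunit protein, was the 1 member called in IL1_TSA against IL1. Its single probe read a raw intensity of 940 in Con, 723 in IL1, 1833 in IL1_TSA and 983 in Con_TSA. IL1 was the lowest array and IL1_TSA the highest. On the log2 scale these levels were 9.80, 9.43, 10.39 and 10.22. The gene was 1.95-fold higher in IL1_TSA than in IL1 (log2 difference 0.97), and 0.68 higher in the authors' own normalised values. In Con_TSA against Con the difference was 0.42, which did not reach 1.5-fold, and in IL1 against Con it was -0.38. IL1_TSA against Con gave 0.59, just past the threshold of 0.585. The 2 comparisons with IL1 share that array, so its low value enters both.

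RPL10L was the 1 member called in IL1 against Con, and it was dim. Its probe read 208 in Con, 284 in IL1, 435 in IL1_TSA and 225 in Con_TSA, under 1% of the brightest probe on every array. The log2 levels were 7.11, 7.83, 8.06 and 7.68, with Con the lowest. IL1 lay 0.72 above Con by the main processing and 0.21 above it in the authors' values, which is under 1.5-fold. IL1_TSA lay 0.94 above Con, and 0.26 in the authors' values.

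At a smaller threshold, a log2 difference of 0.32, 8 members passed in IL1 against Con, 7 of them lower, where 36.8% of all genes passed (14.3% higher and 22.5% lower). All 8 were large subunit genes. After RPL10L they were RPL37 (-0.51), RPL13 (-0.46), RPL23 (-0.40), RPL7A (-0.38), RPL36 (-0.35), RPL10A (-0.34) and RPL5 (-0.33). In the authors' values RPL23 (-0.33) was the only one of the 8 past 0.32. RPL13 and RPL36, described next, differed by -0.29 and -0.195 there, and RPL7A, RPL10A and RPL5 by -0.26, -0.28 and -0.25. RPL13, in which inherited mutations affect the growing skeleton, was at log2 levels of 9.28, 8.82, 8.78 and 9.24 in Con, IL1, IL1_TSA and Con_TSA. Both arrays with IL-1 were lower than both without. Its 2 probes differed by -0.22 and -0.70 in IL1 against Con. RPL13A had a similar order, at 12.84, 12.52, 12.61 and 13.04, and its IL1_TSA level was 0.42 under Con_TSA. RPL36 was at 11.40, 11.05, 11.10 and 11.43, again lower on both arrays with IL-1. RPL5 was highest in Con, at 13.88, and at 13.55, 13.53 and 13.64 on the other arrays, while RPL11, its partner in binding MDM2, was at 14.81, 14.74, 14.78 and 14.96. In IL1_TSA against Con_TSA, 5 members passed 0.32, 3 of them lower, where 25.2% of genes did (12.1% higher and 13.0% lower), and the 3 were RPL13, RPL13A and RPL36. In the authors' values these 3 differed by -0.23, -0.33 and -0.11, so only RPL13A stayed past 0.32. These 4 arrays give no measure of how far such differences vary between cultures.

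RPL23 and RPL37, both large subunit proteins, were low on IL1 only. RPL23 was at 12.36 in Con, 11.96 in IL1, 12.47 in IL1_TSA and 12.35 in Con_TSA. Its raw intensities were 5200, 4080, 7254 and 3996 in the same order. IL1 was thus under Con and IL1_TSA in the raw values too, while it was close to Con_TSA there and under it only after normalisation. RPL37 was at 7.66, 7.15, 7.66 and 7.64, from a probe that read only 201 to 351. In the authors' values its difference was -0.08 in IL1 against Con and 0.10 in IL1_TSA against IL1, against -0.51 and 0.51 here.

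TSA after IL-1 gave 8 members past 0.32 on the log2 scale, 7 higher and 1 lower, where 60.0% of genes passed (32.0% and 28.0%). Higher after RPL7A were RPL23 (0.51), RPL37 (0.51), RPS23 (0.43), RPL32 (0.42), RPL10A (0.39) and RPS28 (0.39). In the authors' values RPL37 differed by 0.10 and RPL32 by 0.11, and the others stayed past 0.32. RPS23, which sits at the decoding centre of the small subunit, was at 12.02 in Con, 11.80 in IL1, 12.23 in IL1_TSA and 12.22 in Con_TSA. RPL10A, the protein of the L1 stalk, was at 14.32, 13.98, 14.37 and 14.37, lowest in IL1. Its 2 probes differed between IL1_TSA and IL1 by 0.42 and 0.36. RPS28 was at 13.51, 13.38, 13.77 and 13.53. The 1 lower member was RPL6, at 13.13, 13.16, 12.74 and 12.81, with both TSA arrays under both arrays without TSA. Its 2 probes differed by -0.60 and -0.23, and the smaller difference came from the probe at 84.0% to 90.6% of the brightest signal.

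TSA alone gave 6 members past 0.32 on the log2 scale, 4 higher and 2 lower, where 54.2% of genes passed (26.9% and 27.2%). The higher ones were RPL10L (0.57), RPL7A (0.42), RPL32 (0.35) and RPS19 (0.34), a small subunit protein mutated in Diamond-Blackfan anaemia. In the authors' values these differed by 0.12, 0.37, 0.17 and 0.28. RPL36A and RPS27L were lower, and RPL36A differed by -0.25 in the authors' values. RPL36A, X-linked, was at 9.43 in Con, 9.19 in IL1, 8.93 in IL1_TSA and 8.90 in Con_TSA, from raw intensities of 741, 625, 722 and 431. Its autosomal paralogue RPL36AL stayed between 14.17 and 14.25 on the 4 arrays. RPS27L was at 14.88, 14.71, 14.70 and 14.51, lowest in Con_TSA, and in the authors' values its difference in Con_TSA against Con was -0.54. RPS27 was at 15.36, 15.26, 15.26 and 15.26. In IL1_TSA against Con, 7 members passed 0.32, 3 higher and 4 lower, where 59.4% of genes did (28.5% and 30.8%).

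The 2 TSA comparisons share no array, so they can be read against each other as a description. Over the 73 members Pearson's r between their log2 differences was 0.55 and Spearman's rho 0.56. Over all 10128 genes r was 0.73, and over the 776 bright genes 0.81. Members in a pair of arrays share probes and the normalisation. Both differences were above 0 in 32 members, both below 0 in 17 and of opposite sign in 21. RPL7A and RPL32 were the 2 members higher by at least 0.32 in both. In the authors' values, without and with IL-1, RPL7A differed by 0.37 and 0.68 and RPL32 by only 0.17 and 0.11. RPL32 was dim, and 1 of its 3 probes, the one with the largest difference with IL-1 (0.61), was detected on 1 array only. No member passed 1.5-fold in both. The difference between the TSA effect with and without IL-1 ranged from -0.34 (RPL10L) to 0.54 (RPL7A) and reached 1.5-fold in no member, against 20.5% of all genes and 4.64% of bright genes. This difference was not tested.

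**Figure D2:**
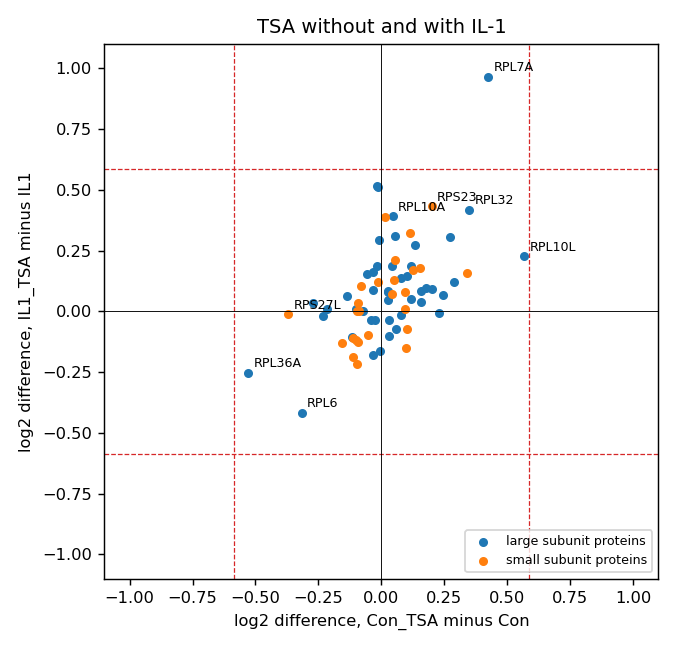
Log2 difference of each ribosomal protein gene for TSA without IL-1 (horizontal axis, Con_TSA minus Con) and with IL-1 (vertical axis, IL1_TSA minus IL1); red dashed lines mark 1.5-fold. Most points lie near 0; RPL7A and RPL32 are high on both axes and RPL36A and RPL6 are low on both, with r = 0.55 over 73 members including the 1 Y-linked gene that is not drawn.

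Of the 73 members 27 belong to the small and 46 to the large subunit. No small subunit member was called at 1.5-fold in any of the 5 comparisons, so both members called are large subunit genes. At a log2 difference of 0.32 none of 27 small and 8 of 46 large subunit members passed in IL1 against Con, 2 and 6 in IL1_TSA against IL1, 2 and 4 in Con_TSA against Con, 1 and 4 in IL1_TSA against Con_TSA, and none and 7 in IL1_TSA against Con. Signal level enters too: in IL1 against Con 5 of 19 members with a mean level under 12 passed (26.3%), against 3 of 54 at 12 or more (5.56%). Most of the 19 are large subunit genes, so subunit and signal level were not separated. The difference between subunits was not tested. The median small subunit member differed by -0.09, 0.01, -0.01 and -0.04 in the 4 main comparisons, where the median large subunit member differed by -0.08, 0.08, 0.03 and -0.01. RPS6, the substrate of the S6 kinases, was at 14.85 in Con, 14.71 in IL1, 14.84 in IL1_TSA and 14.90 in Con_TSA. The stalk proteins that call translation factors to the ribosome varied as little, with RPLP1 between 14.15 and 14.35 and RPLP2 between 15.13 and 15.30. Among the paralogues RPL26L1 lay between 11.38 and 11.61 and RPL7L1 between 11.24 and 11.51, while RPL26 lay between 13.91 and 14.05.

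Where a member had more than 1 detected probe, the probes often disagreed in sign. This was so in 10 of 35 members in IL1 against Con, 15 in IL1_TSA against IL1, 16 in Con_TSA against Con and 18 in IL1_TSA against Con_TSA. A gap of more than 1.5-fold between probes of 1 member was found in 1, 2, 1 and 1 members, and in no case did 2 probes pass 1.5-fold in opposite directions. The members named in the next sentences were chosen for these gaps after their values were seen. In IL1_TSA against IL1, RPL13 gave -0.54 and 0.47, and RPS24 gave -0.32 and 0.34. RPS24 is spliced at its 3′ end, and its 2 probes carry different transcript accessions. RPL32 gave -0.15 to 0.48 over 3 probes in IL1 against Con, all 3 under 2% of the brightest signal.

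Many member probes lay near the upper end of the arrays, where a signal can level off and a difference can read too small. The brightest probe of each array read 56017 in Con, 50242 in IL1, 50634 in IL1_TSA and 50233 in Con_TSA, and on 2 arrays it was a member, RPS25 in IL1 and RPL41 in Con_TSA. RPS25 read 51985, 50242, 48111 and 45460, so all 4 values were within 90.5% to 100% of the brightest probe. Counting probes above 50% of the brightest signal, 37 member probes passed in Con, 36 in IL1, 43 in IL1_TSA and 35 in Con_TSA. They were 40.2%, 33.0%, 29.7% and 44.3% of all named probes in that range. In all, 43 member probes for 36 genes were in that range on at least 1 array, and 33 probes for 29 genes on all 4. Members held between 10 and 13 of the 50 brightest probes and between 7.64% and 9.27% of the summed signal of named probes, lowest in IL1_TSA and highest in Con_TSA.

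**Figure D3:**
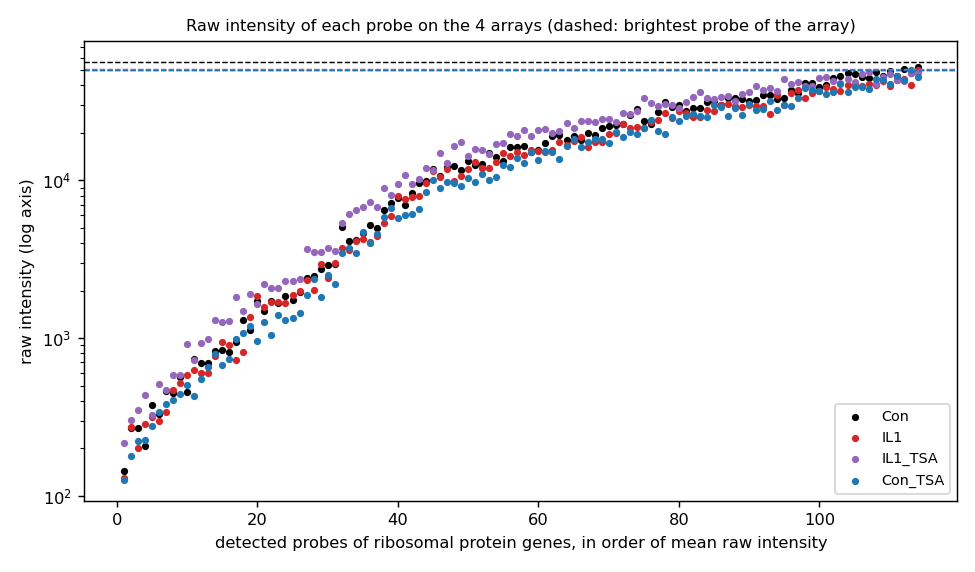
Raw intensity (log axis) of each detected ribosomal protein probe on the 4 arrays, with probes in order of their mean; dashed lines mark the brightest probe of each array, at 56017 for Con and 50233 to 50634 for the others. IL1_TSA (purple) lies above the other arrays at dim and middle probes and meets them near the dashed lines.

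Raw ratios between arrays changed with the signal. IL1_TSA was the brightest array and Con_TSA the dimmest, and the median raw ratio of IL1_TSA to Con_TSA was 1.67 over 26 member probes at up to 5% of the brightest signal, 1.54 over 26 probes at 5 to 25%, 1.39 over 24 probes at 25 to 50% and 1.20 over 37 probes above 50%. Over all named probes the same ratios were 1.59, 1.61, 1.49 and 1.26. Over the members the ratio was lower in each brighter class, and over all named probes it fell above 25%. For IL1 over Con the member ratios were 0.981, 0.918, 0.900 and 0.889 in the same classes, farther from 1 in the brighter ones. Over all named probes they were 0.916, 0.945, 0.946 and 0.910, with no such steady fall. In IL1_TSA against IL1, 2 member probes passed 1.5-fold, both at up to 5%, and none in the 3 brighter classes, where the share over all named probes was 37.2%, 23.0%, 4.23% and 1.98% from the dimmest class to the brightest. The part of signal levelling in the small differences of the brightest probes was not tested, and their folds may be too small.

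**Figure D4:**
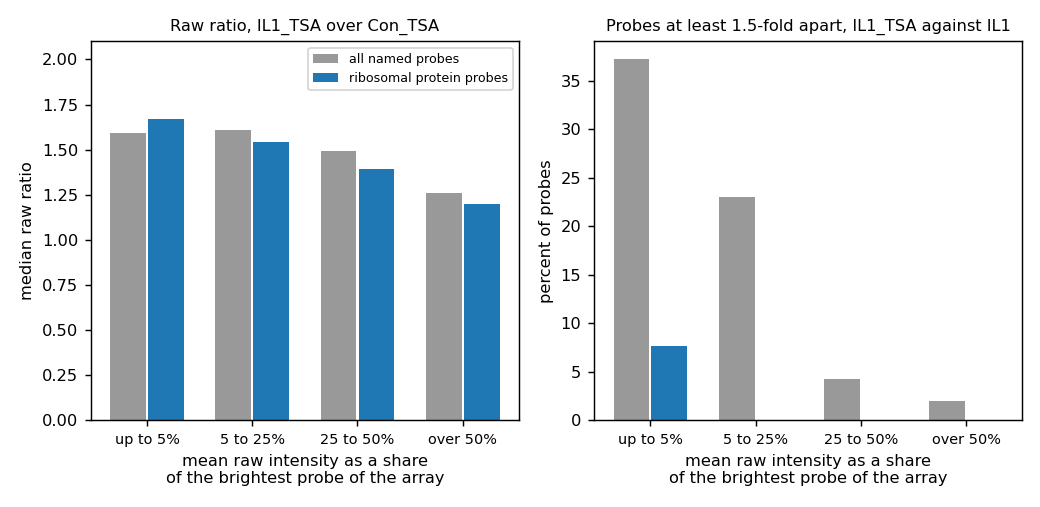
Probes grouped by mean raw intensity as a share of the brightest probe (horizontal axis), with all named probes in grey and ribosomal protein probes in blue. Left, the median raw ratio of IL1_TSA to Con_TSA, which falls from 1.67 to 1.20 over the ribosomal protein probes; right, the percent of probes at least 1.5-fold apart in IL1_TSA against IL1, which is 0 for ribosomal protein probes in the 3 brighter groups.

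The comparison of the 2 TSA arrays moved with the scaling. With each array scaled to its median instead of quantile normalised, 7 members were lower in IL1_TSA than in Con_TSA: RPL27, RPL41, RPLP2, RPS12, RPS16, RPS2 and RPS25, by 0.60 to 0.86 on the log2 scale. With that scaling 6.87% of 10128 genes were called, 349 higher and 347 lower. Each of the 7 has a probe above 50% of the brightest signal, as do 36 of the 73 members, and the part of brightness in these differences was not tested. Their differences after quantile normalisation lay between -0.24 and 0.06.

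The list of other TOP transcripts held 18 genes, among them elongation factors, poly(A)-binding protein PABPC1 and nucleophosmin NPM1, and none was called in any of the 5 comparisons. EEF1A1 was at 15.42 in Con, 15.48 in IL1, 15.46 in IL1_TSA and 15.57 in Con_TSA, and EEF2 at 14.32, 14.22, 14.40 and 14.39. FAU, a ribosomal protein gene whose symbol falls outside the rule, differed by 0.23, -0.02, 0.14 and 0.07 in IL1 against Con, IL1_TSA against IL1, Con_TSA against Con and IL1_TSA against Con_TSA and was not called. Of 9 other bright housekeeping transcripts none was called. Over the 776 genes at level 12 or more, between 0.515% and 14.3% were called per comparison. Nothing particular to these 2 short lists is read from their counts.

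Some genes that build the ribosome passed 1.5-fold with TSA. Of 40 detected ribosome assembly factors 8 were higher and 3 lower in Con_TSA against Con, and 8 were higher and 4 lower in IL1_TSA against IL1. RRP9, of the U3 small nucleolar RNP, was 1.83 higher on the log2 scale with TSA alone and 1.66 higher with TSA after IL-1, the order kept below, and LYAR, a nucleolar protein, 1.61 and 1.59. NOLC1, a chaperone of small nucleolar RNPs, was 1.06 and 1.36 higher and BOP1, of the complex that matures the large subunit, 0.79 and 0.93. GAR1 was 0.68 and 0.79 lower. RRP9 was dim without TSA, at a log2 level of 7.43 in Con and 7.66 in IL1. In the authors' values RRP9 differed by 0.80 and 0.68 and BOP1 by 0.69 and 0.82. GAR1 differed by -0.415 and -0.53 there, which is under 1.5-fold. In IL1 against Con 1 assembly factor was higher, MYBBP1A, and in IL1_TSA against Con_TSA none was called. Of 11 RNA polymerase I genes, which serve ribosomal RNA synthesis, 3 were higher and 1 lower with TSA alone, and 3 higher and none lower with TSA after IL-1. POLR1B was 0.71 and 0.73 higher and POLR1E 0.70 and 0.76. UBTF, which activates the ribosomal RNA promoter, was the 1 called lower; it was detected only in Con, at a log2 level of 7.03, so no fold is given. These counts stand against 32.7% and 39.4% of all genes, and nothing particular to the lists is read from them.

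Initiation factors were mixed, with 3 of 25 higher and none lower in Con_TSA against Con and 3 higher and 2 lower in IL1_TSA against IL1. EIF1AX was 0.77 and 1.40 higher, EIF5B 0.88 and 1.09 and EIF2S1 1.02 and 0.59. The 2 lower with TSA after IL-1 were EIF5 (-1.20) and EIF2S2 (-1.055). These 2 were 0.83 and 0.63 higher in IL1 than in Con. In the authors' values EIF1AX with TSA alone (0.44) and EIF2S1 with TSA after IL-1 (0.32) were under 1.5-fold. So was EIF2S2 in both comparisons (-0.35 with TSA after IL-1 and 0.255 in IL1 against Con). Of 12 detected growth control genes 4 were higher and 1 lower with TSA alone, and 4 higher and 3 lower with TSA after IL-1. RPS6KA1, RPS6KB1 and EIF4EBP2 were higher in both. In this list MYC, a transcription factor that drives ribosome synthesis, was at 9.79 in Con, 10.20 in IL1, 8.70 in IL1_TSA and 8.16 in Con_TSA. Both TSA arrays were thus more than 1.5-fold under their counterparts, by -1.63 without IL-1 and -1.50 with it. A link between MYC and the ribosomal protein mRNAs was not tested. The mitochondrial ribosomal proteins, which serve a separate ribosome, had all 77 listed genes detected. Of these 2 were higher and 9 lower in Con_TSA against Con, 8 higher and 5 lower in IL1_TSA against IL1 and 5 lower in IL1 against Con, where 32.7%, 39.4% and 16.5% of all genes were called. The same shares apply to the other lists in this paragraph. MRPL27 was 1.57 lower with TSA alone and 1.34 lower with TSA after IL-1. Of 6 detected MDM2 and p53 target genes 1 was higher and none lower with TSA alone, and 3 were higher and 1 lower with TSA after IL-1. CDKN1A was 0.70 higher with TSA alone and 1.28 higher with TSA after IL-1, and BAX was at -0.40 and -0.72, the second of which was called.

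**Figure D5:**
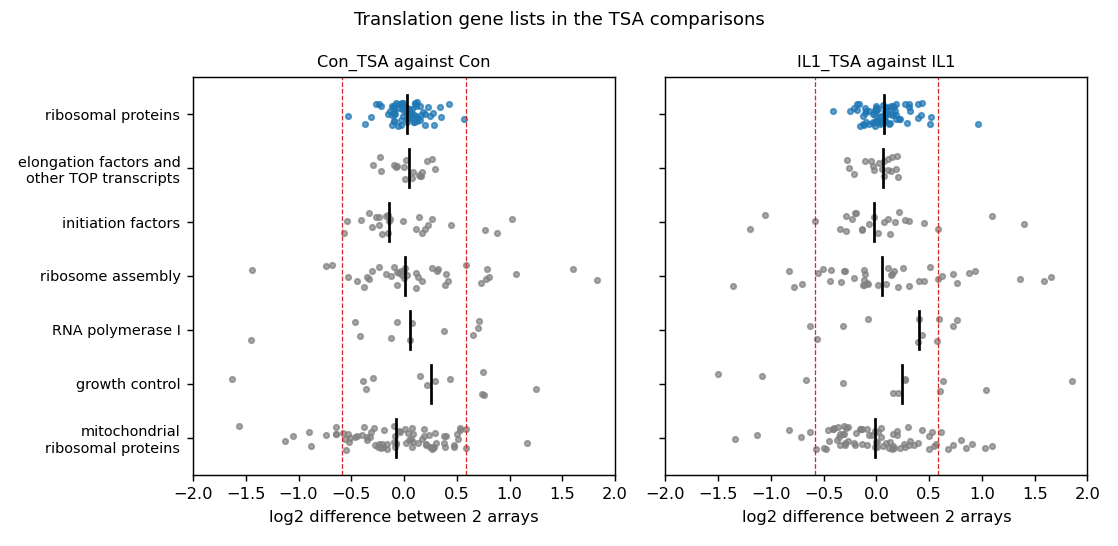
Log2 difference (horizontal axis) of each gene in 7 gene lists (rows) for TSA without IL-1 (left) and with IL-1 (right); black bars are list medians and red dashed lines mark 1.5-fold. The ribosomal proteins (blue) and the other TOP transcripts cluster near 0, and only RPL7A among them passes a dashed line, while assembly factors reach 1.83 (RRP9). RRP9 was dim without TSA, and its difference for TSA without IL-1 was 0.80 in the authors' values.

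In all, 4 members were detected on no array. They include RPL10, whose 2 probes stayed below detection although the protein is part of every ribosome, and the tissue-restricted paralogues RPL3L and RPL39L; the other is Y-linked and its level is not given. RefSeq lists 87 protein-coding symbols that match the rule, and 10 of them were not analysed here, among them RPSA, RPLP0 and RPS27A.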

How the data were processed

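Total RNA of 4 SW1353 cultures, 1 per condition, was hybridised to Illumina whole-genome arrays. The authors deposited intensity values per probe, not normalised between arrays, with a deposited detection p-value beside each, which ranks the probe against the negative controls of its array. The authors also deposited log2 values made with lumi (version not given in the sources used here), which stabilises the variance and then aligns arrays by robust splines.

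The intensities were processed here with neqc of limma 3.58.1 in R 4.3.3 (background from the detection p-values, offset 16, quantile normalisation, log2), and summarised with Python 3.11.15, pandas 2.3.3 and numpy 2.4.6. Quantile normalisation forces 1 distribution on all arrays, so a change shared by most genes is removed. Only probes whose detection p-value was under 0.01 on 1 array or more were used, and these were averaged per gene. The counting steps were tested on simulated data.

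Names came from the platform annotation supplied with the series, which names 27565 of 48784 probes with 1 gene and seems to be of an earlier design than the array in the methods; unlisted probes stay unnamed. Start sequences are from RefSeq, GRCh38.p14; where a gene has several starts, the one with the longest run was taken, for members and all genes alike. Arrays have no read depth, and their number limits the precision. The members, lists and alternatives were chosen with earlier results of these data known. Named members are the 5 largest increases and decreases per comparison among members whose probes agree in sign, paralogues with their partners, RPS6, RPL5, RPL11 and the stalk proteins, and members with very bright or disagreeing probes. Levels of Y-linked members are not printed.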

Additional observations from a re-analysis of the deposited data

How the results depend on the processing

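With 1 array per condition nothing measures the spread between cultures, and quantile normalisation cannot show a change shared by most genes. No paired analysis was possible because each condition has 1 array. Of 73 members called at 1.5-fold (main counts 1, 1, 0, 0 and 2 in IL1 against Con, IL1_TSA against IL1, Con_TSA against Con, IL1_TSA against Con_TSA and IL1_TSA against Con), the authors' deposited values gave 0 in IL1 against Con and 0 in IL1_TSA against Con. No background correction gave 0 and 1 in those comparisons, and an offset of 50 gave 1 in IL1_TSA against Con. Median scaling gave 2 in IL1_TSA against IL1, 1 in Con_TSA against Con and 7, all lower, in IL1_TSA against Con_TSA, with a member median of -0.266 there. The brightest probe per gene gave 2 in IL1 against Con and 3 in IL1_TSA against Con, and leaving out probes above 50% of the brightest gave 2 of 51 in IL1_TSA against IL1. At a log2 difference of 0.32 the counts were 8, 8, 6, 5 and 7, and at 2-fold they were 0 in all 5. Over all genes, calls in IL1 against Con were 865 higher and 803 lower, against 339 and 86 in the deposited values and 660 and 368 with no background correction; in IL1_TSA against Con_TSA they were 425 and 279, against 89 and 11, 196 and 53, and 349 and 347 with median scaling. Of 1176 values of 38 named members over 8 alternatives, 1098 moved by less than the spread set for them. The other 78 moved by more, 35 of these under median scaling. A turned direction was looked for only where the main processing called the member at 1.5-fold. That held for RPL10L in IL1 against Con and RPL7A in IL1_TSA against IL1, and 0 of their values turned. The sign of the other values was not checked.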
